A study of Mus musculus with 5 samples.

Results

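Acetylation of lysine 27 of histone H3 (H3K27ac) was compared between control and Olig2cKO mouse gliomas through the peak list of 1 chromatin immunoprecipitation sequencing (ChIP-seq) library per genotype. All peaks on chromosomes 1 to 19 were taken, 55323 of the control list and 67928 of the Olig2cKO list, together 123251 of the 258727 peaks in the 5 lists of the series. Tumours of both groups carried floxed P53, and Olig2cKO tumours carried floxed Olig2 in addition. Both groups were on a background mixed from C57Bl/6, 129Sv and CD-1 mice, both tumours were induced with PDGFB through a virus, and both were taken 25 days after injection of the virus. The driver of recombination, the number of tumours in each library and any pooling are not given in the sources used here. The other 3 libraries, H3K4me3 in each genotype and Olig2 in control tumours, served to describe the H3K27ac peaks.

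H3K27ac is laid down by the acetyltransferases p300 and CBP and lies on the nucleosomes that flank active promoters and active enhancers. The promoter or enhancer core between these nucleosomes is often bound by transcription factors and poor in nucleosomes, so that the mark can appear as shoulders on both sides of a dip. H3K4me3 marks mainly promoters. Olig2 is a basic helix-loop-helix factor of the oligodendrocyte lineage that is also expressed in many gliomas.

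No replicate was available, so each difference below is between 2 libraries, without a test. Peaks are given by position on mm9 and counted from 1. The reference positions used here are of another build, so peaks carry no gene names here and neither the tumour type nor the loss of Olig2 was checked against the labels. Sequencing depth is unknown. The Olig2cKO list covered 120.0 Mb and the control list 98.9 Mb, with median peak widths of 1438 and 1478 bp. The bracketed ranges after shares are 95% exact binomial intervals (Clopper-Pearson) for counting error alone, computed as if peaks were independent.

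Most acetylated regions were matched 1 to 1 between the genotypes. Peaks that overlapped by at least 1 bp and had no further partner on either side made 42189 pairs, which is 76.3% (75.9 to 76.6) of the control list and 62.1% (61.7 to 62.5) of the Olig2cKO list. They held 80.1% of the acetylated bases of control tumours and 72.1% of those of Olig2cKO tumours. A further 9901 control peaks (17.9%) and 21097 Olig2cKO peaks (31.1%) had no partner. The remaining peaks were single intervals in one genotype and several intervals in the other. Of these, 1938 control peaks corresponded to 2 or more Olig2cKO peaks and to nothing else, and 561 Olig2cKO peaks corresponded to 2 or more control peaks. Pieces of such a peak of the other list numbered 1210 in the control and 3995 in the Olig2cKO list. The last 85 control and 86 Olig2cKO peaks were linked in both ways.

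The classes differed in what they carried. H3K4me3 of the same genotype lay on 84.7% of the 1938 split control peaks, 54.8% of the paired control peaks and 25.1% of the control peaks without a partner. Olig2 lay on 76.2%, 54.7% and 26.0% of them in this order. The 561 Olig2cKO peaks that spanned several control peaks carried H3K4me3 of Olig2cKO tumours in 47.8% of cases and Olig2 in 37.6%. The corresponding values for paired Olig2cKO peaks were 58.5% and 54.4%. Split control peaks were also wider than paired ones, with median widths of 2202 and 1582 bp.

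Control acetylation peaks broken into pieces in Olig2cKO tumours outnumbered the reverse. Counting every control peak with at least 2 partners, 2023 were split, 4.45% of the control peaks with any partner. Every Olig2cKO peak with at least 2 control partners gave 647 joins, 1.38% of the Olig2cKO peaks with any partner. The ratio of splits to joins was 3.13 over all 19 chromosomes and ran from 2.02 on chromosome 1 to 4.65 on chromosome 19. With the Olig2cKO list cut to the length of the control list the counts were 1395 and 625, and among the upper 50% of each list by score they were 481 and 19. The excess was small where short gaps were closed, with 223 splits and 201 joins after merging peaks of a list within 1 kb. It was also smaller with peaks up to 1 kb apart counted as overlapping, with 7880 splits and 6164 joins. H3K4me3 peaks of the same genotypes went the other way, with 234 splits and 2705 joins. The difference between the marks was not tested, and depth and fragment length of the libraries are unknown.

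Breaks in both directions were narrow and mostly central. The 2023 split control peaks held 2058 gaps between neighbouring Olig2cKO pieces, with a median length of 122 bp and quartiles at 54 and 223 bp. Of these gaps, 1567 (76.1%) had their centre in the middle of 3 equal parts of the control peak. The pieces had a median width of 1002 bp. The stronger of the pair stood at a median percentile rank of 68.9 in the Olig2cKO list and the weaker at 29.3. They were named stronger and weaker by this rank, so a difference between them is by construction. A percentile rank of 100 is the strongest peak of its own list, by the score of the authors' peak caller. The split control peaks themselves stood at a median rank of 77.4 in the control list. Gaps in joins were of similar length (median 90 bp, quartiles 32 and 228 bp), and 445 of them (68.6%) had their centre in the middle part of the Olig2cKO peak. A gap inside a peak by construction leaves part of a piece on each side. No expected share for the middle part was computed.

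**Figure D1:**
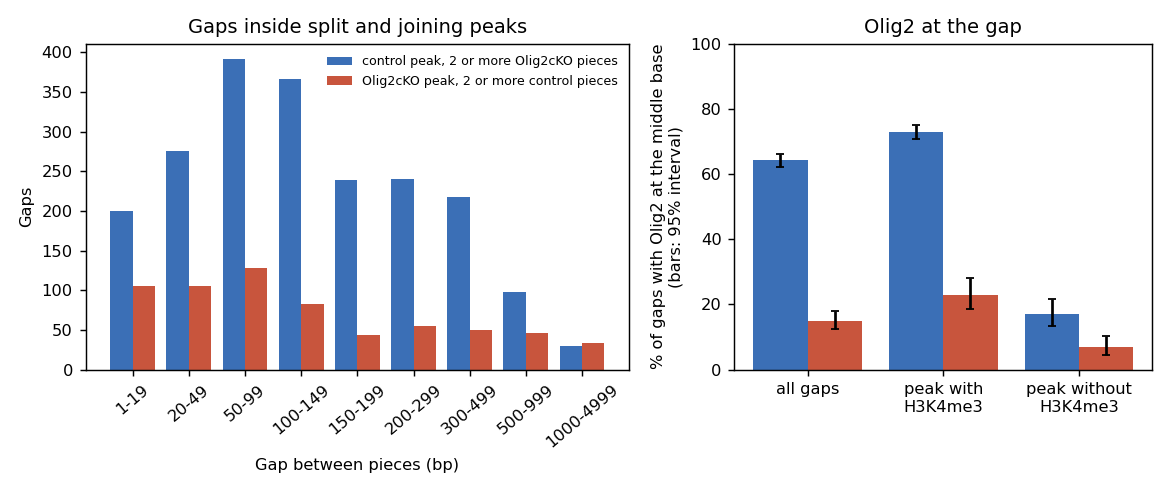
Left, number of gaps by length in bp, between Olig2cKO pieces inside 1 control peak (blue) and between control pieces inside 1 Olig2cKO peak (red). Right, percent of these gaps whose middle base lay in an Olig2 peak of control tumours, with 95% binomial intervals: 64.2% for splits against 14.9% for joins over all gaps, and the blue bar stands above the red one with and without H3K4me3 on the peak.

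Olig2 lay in most of the gaps where a control peak was broken in Olig2cKO tumours. The middle base of the gap fell inside an Olig2 peak at 1322 of the 2058 splits (64.2%, 62.1 to 66.3) and at 97 of the 649 gaps in joins (14.9%, 12.3 to 17.9). Splits also carried H3K4me3 more often than joins, so the shares were taken with and without it. Where the broken peak carried H3K4me3 the shares were 73.1% (70.9 to 75.2) of 1732 gaps in splits and 23.0% (18.5 to 28.0) of 322 gaps in joins. Without H3K4me3 they were 17.2% (13.2 to 21.7) of 326 and 7.03% (4.51 to 10.4) of 327. The middle base of control peaks that had exactly 1 partner lay in an Olig2 peak in 41.6% (41.1 to 42.1) of 42189 cases. Among the 23103 of them that carried H3K4me3 it did in 53.4% (52.7 to 54.0). Within the split control peaks, Olig2 peaks covered 63.6% of the bases of the gaps and 35.4% of all bases. Within joins they covered 5.38% of the gap bases and 13.4% of all bases. The plot of gap lengths and of Olig2 at the gap shows both directions side by side.

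All short gaps of a list were then followed into the other list, whether bridged there or not. Neighbouring Olig2cKO peaks stood 1 to 500 bp apart at 4877 places, 50.8% of them with Olig2 at the middle of the gap. A single control peak spanned 50.6% (48.6 to 52.6) of the 2476 gaps with Olig2 at the middle and 28.2% (26.4 to 30.1) of the 2401 without. Neighbouring control peaks stood that close at 3175 places, 54.6% of them with Olig2 at the middle. A single Olig2cKO peak spanned 5.54% (4.51 to 6.72) of the 1733 gaps with Olig2 at the middle and 32.9% (30.4 to 35.4) of the 1442 without. The directions thus lay near each other without Olig2 at the gap and far apart with it. Acetylation rank in the control list was not matched in either comparison of gaps. Split control peaks stood at a median of 77.4 there, and the control pieces of joins at 35.5 (stronger) and 13.5 (weaker). No Olig2 library of Olig2cKO tumours entered the comparison, and the part of Olig2 in these gaps was not tested.

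H3K4me3 seldom followed the breaks in acetylation at split control peaks. At the middle of the 1322 gaps with Olig2 in split control peaks, an H3K4me3 peak was listed in both genotypes in 789 cases (59.7%, 57.0 to 62.3), in Olig2cKO tumours alone in 374 (28.3%, 25.9 to 30.8) and in control tumours alone in 14 (1.06%, 0.580 to 1.77), with no H3K4me3 peak in either in the other 145. So a site that was continuous in acetylation in control tumours and interrupted in Olig2cKO tumours was seldom interrupted in H3K4me3 in Olig2cKO tumours alone. In the 736 gaps of splits without Olig2 the counts were 258, 104 and 11, with no H3K4me3 peak in either genotype in 363. Gaps in joins, where acetylation was interrupted in control tumours instead, also had H3K4me3 more often in Olig2cKO tumours alone than in control tumours alone. In joins that is the genotype with continuous acetylation. Of the 97 with Olig2, 52 had H3K4me3 in both genotypes, 17 in Olig2cKO tumours alone, 0 in control tumours alone and 28 in neither. The low share in control tumours alone was thus not particular to splits. The H3K4me3 list of Olig2cKO tumours covered 74.95 Mb and that of control tumours 60.62 Mb. The 1359 Olig2 peaks in the gaps of split control peaks had a median rank of 67.2 in the Olig2 list and a median width of 1088 bp. The 25197 other Olig2 peaks on control H3K27ac stood at 58.1 and 927 bp.

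The control peaks broken into most pieces had 3 each, which 35 control peaks did. Among the 5 widest of these, the peak on chromosome 8 from 35867420 to 35874135 (rank 74.5) became pieces at ranks 82.1, 1.04 and 41.5, with gaps of 107 and 245 bp. The peak on chromosome 10 from 13683487 to 13689054 (rank 91.3) became pieces at ranks 0.342, 41.0 and 83.0, with gaps of 4 and 1356 bp. The peak on chromosome 15 from 8392174 to 8397313 (rank 78.6) became pieces at ranks 23.7, 47.9 and 55.0. All 5 carried H3K4me3 in both genotypes, and 4 carried Olig2. In the reverse direction, 2 Olig2cKO peaks spanned 3 control peaks. They lay on chromosome 10 from 60166667 to 60170226 (rank 74.6, pieces at 34.2, 18.2 and 17.9) and on chromosome 15 from 84195920 to 84198816 (rank 74.4, pieces at 36.5, 29.5 and 3.96). Neither carried H3K4me3 or Olig2. Each stood higher in the Olig2cKO list than any of its pieces in the control list. The 3 widest joins of 2 control peaks, by contrast, were weak in the Olig2cKO list, at ranks of 9.51, 16.5 and 29.9. They lay on chromosome 16 from 91372165 to 91380772, on chromosome 1 from 87823379 to 87831388 and on chromosome 3 from 51355815 to 51363760, and all 3 carried H3K4me3 in both genotypes.

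The order of acetylation strength was largely kept among the paired peaks. Over the 42189 pairs the Spearman correlation of the ranks was 0.71, as a description, since pairs share their libraries and their local chromatin. The 5 pairs strongest in both lists stood above rank 99.9 in each, on chromosome 11 (62777619 to 62781998 and 53113896 to 53115531), chromosome 15 (78213809 to 78216948), chromosome 9 (35112533 to 35113425) and chromosome 5 (140893725 to 140895305), and all 5 carried H3K4me3 in both genotypes and Olig2. The median pair stood 3.99 points higher in the Olig2cKO list, with quartiles at -5.79 and 17.9, and 43.2% of pairs were within 10 points. The ranks were taken in whole lists of unequal length, and the 21097 Olig2cKO peaks without a partner had a median rank of 24.9. The part of list length in this offset was not tested.

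Pairs at least 25 points higher in Olig2cKO tumours numbered 7046, 16.7% of the pairs, and pairs at least 25 points lower numbered 3138, 7.44%. The balance between the directions depends on the scale. With lists of equal length the shares were 11.2% and 12.1%, and with ranks among peaks of like width 14.6% and 8.94%. With ranks among the pairs alone, where the differences average to no change by construction, they were 11.4% and 11.6%. The nearest pairs stood at 25.0009 inside and 24.9998 outside the line for the higher class, and at -25.0043 and -24.9975 for the lower one. Differences of 50 points or more were seen in 1254 pairs upward and 473 downward, and of 90 points or more in 6 and 2.

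**Figure D2:**
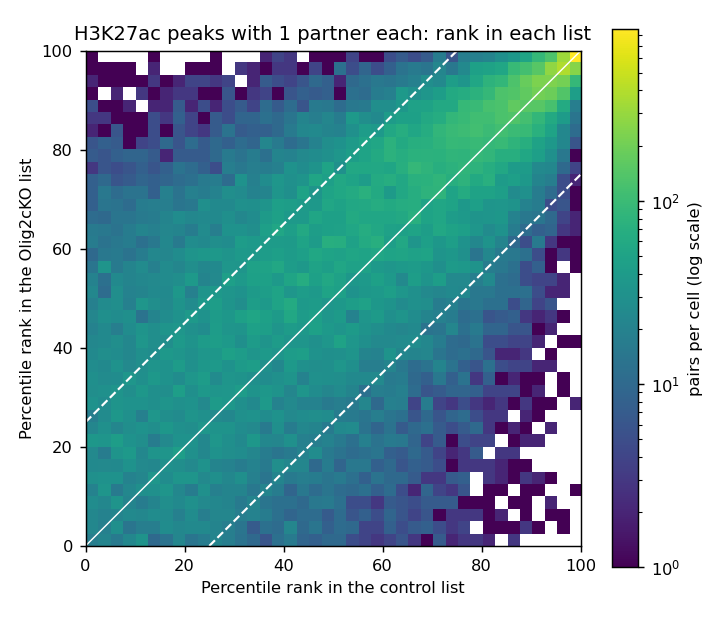
Percentile rank of the 42189 paired H3K27ac peaks in the control list (horizontal) and the Olig2cKO list (vertical), with the number of pairs per cell on a log colour scale, the line of equal rank (solid) and the lines 25 points away (dashed). Pairs are most frequent at the upper right, where both ranks are high, and spread widely below it, with 7046 pairs on or above the upper dashed line and 3138 on or below the lower one.

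The largest gains in rank were at narrow control peaks that were wider in Olig2cKO tumours. That they were weak in control and strong in Olig2cKO tumours is by construction. The largest was on chromosome 17, where a control peak of 523 bp (34441936 to 34442458) stood at rank 1.25 and its Olig2cKO partner of 3689 bp (34440609 to 34444297) at rank 98.1. On chromosome 11, a control peak of 442 bp (53936179 to 53936620) at rank 0.415 met an Olig2cKO peak of 2362 bp at rank 95.9. On chromosome 2, a control peak from 28955960 to 28956569 went from rank 1.73 to 94.4 and one from 147702342 to 147703008 from 4.93 to 95.1. On chromosome 8, the peak from 34069328 to 34069787 went from 3.32 to 93.4. On chromosome 13, the one from 48226693 to 48227490 went from 1.24 to 90.7. All 10 of the largest gains were wider in Olig2cKO tumours. All 10 carried H3K4me3 in Olig2cKO tumours, 7 carried it in control tumours and 6 carried Olig2. The shares over all 42189 pairs were 58.6%, 55.0% and 55.0% in this order.

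The largest losses had 2 shapes. In 6 of the 10 the Olig2cKO peak was narrower than its control partner. On chromosome 5, a control peak of 2279 bp (137852627 to 137854905) at rank 91.3 met an Olig2cKO peak of 588 bp at rank 3.05, and one of 2815 bp (63314900 to 63317714) at rank 94.5 met one of 622 bp at rank 7.52. On chromosome 16, a control peak from 26184108 to 26186158 went from rank 89.1 to 2.81, and one from 42523123 to 42525163 was at rank 3.12 in the Olig2cKO list, a difference of -86.8 points. None of these 4 carried H3K4me3 in either genotype, and 2 carried Olig2. The other 2 narrowed peaks, on chromosome 4 (129662554 to 129665208, rank 87.0 to 0.487) and chromosome 7 (125940071 to 125942497, rank 86.5 to 1.38), carried Olig2 and control H3K4me3. In the other 4 the Olig2cKO peak was wider than its partner yet ranked low. On chromosome 15 a control peak of 3919 bp (7142339 to 7146257) at rank 96.7 met an Olig2cKO peak of 8965 bp at rank 4.39, on chromosome 16 one of 3102 bp (91270675 to 91273776) at rank 97.0 met one of 4282 bp at rank 6.29, and on chromosome 2 one of 5037 bp (145684103 to 145689139) at rank 97.6 met one of 8509 bp, a difference of -86.6 points. The fourth, on chromosome 5 from 36249883 to 36252784, met a peak of 8562 bp. All 4 carried H3K4me3 in both genotypes.

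Low rank of very wide peaks was a property of both lists. The median rank was highest for widths of 3 to 4 kb, at 82.0 in control and 78.4 in Olig2cKO tumours, and for peaks over 8 kb it was 22.9 (88 peaks) and 22.2 (95 peaks). At very wide peaks a low rank and great width thus cannot be told apart. Of the 3138 pairs that were at least 25 points lower, 176 (5.61%) had an Olig2cKO peak over 6 kb. The whole Olig2cKO list of 67928 peaks held 540 of 6000 to 7000 bp, 274 of 7000 to 8000 bp and 95 over 8000 bp. Peaks over 6 kb were thus a small part of the lower pairs, but a larger share of them than of the whole list. Ranked instead among peaks of like width, in 10 classes, the 10 largest losses had differences of -88.7 to -44.7 points and the 10 largest gains 50.6 to 93.0 points. On that scale 3415 of the 7046 higher and 1744 of the 3138 lower pairs were still past 25 points.

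**Figure D3:**
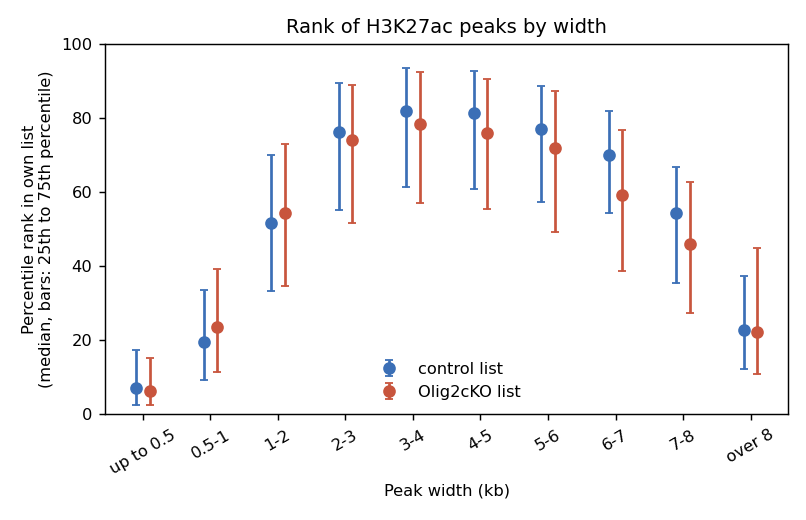
Median percentile rank in the own list by peak width in kb, for control (blue) and Olig2cKO (red) H3K27ac peaks, with bars from the 25th to the 75th percentile. In both lists the rank climbs up to 3 to 4 kb (82.0 and 78.4) and is low again over 8 kb (22.9 and 22.2).

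Width and rank moved together. The median pair was 75 bp wider in Olig2cKO tumours. Of the pairs at least 25 points higher, 91.1% were wider in Olig2cKO tumours, by a median of 613 bp. Of those at least 25 points lower, 20.9% were wider, and the Olig2cKO peak had a median width difference of -436 bp from its partner. Between these lines 53.2% were wider, by a median of 28 bp over all of them. The paired peaks lay on nearly the same sites, with a median distance of 116 bp between their centres. In 15431 pairs (36.6%) the control peak lay wholly within the Olig2cKO peak, and in 11159 (26.5%) the reverse. The 5 largest gains in width were of 6007 to 6646 bp. On chromosome 11 a control peak of 705 bp (57997066 to 57997770) met an Olig2cKO peak of 7239 bp, and its rank went from 8.93 to 49.0. On chromosome 3 a control peak of 1770 bp (141598810 to 141600579) met one of 7777 bp, and its rank went from 54.9 to 36.5. All 5 carried H3K4me3 in Olig2cKO tumours and 4 in control tumours. The 5 largest losses in width were differences of -6182 to -5858 bp, and all 5 of these narrower peaks ranked higher in the Olig2cKO list, by 7.97 to 59.2 points. Among them, the Olig2cKO peak on chromosome 11 from 101643777 to 101645762 stood at rank 98.8, while the 7976 bp control peak around it stood at 39.6.

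H3K4me3, measured in other libraries, shifted with the acetylation rank. Pairs with H3K4me3 in Olig2cKO tumours alone (2978) stood a median of 16.0 points higher in Olig2cKO H3K27ac, those with H3K4me3 in both genotypes (21755) 2.57 points higher, and those with H3K4me3 in control tumours alone (1452) had a median difference of -5.25 points. Pairs without H3K4me3 (16004) stood 6.51 points higher. The order of these groups was kept with ranks among the pairs alone, at 10.8, -0.41, -12.4 and 0.32 points. Of pairs with H3K4me3 in Olig2cKO tumours alone, 33.6% were at least 25 points higher and 2.92% at least 25 points lower. Of those with H3K4me3 in control tumours alone, 4.48% and 18.4% were. Where an acetylation pair met exactly 1 H3K4me3 pair (19196 cases), the Spearman correlation of the rank differences of the marks was 0.27, again as a description, since both marks came from tumours of the same genotype. Among acetylation pairs at least 25 points higher, 80.6% of 2308 also ranked higher in H3K4me3. Among those at least 25 points lower 50.4% of 1031 did, against 62.7% over all.

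**Figure D4:**
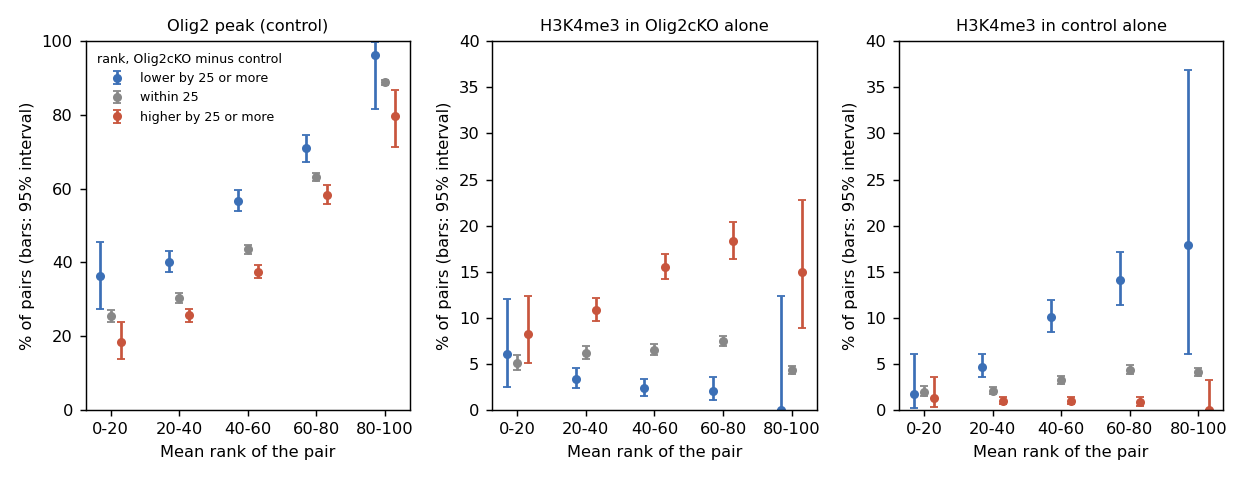
Percent of H3K27ac pairs that carried an Olig2 peak of control tumours (left), H3K4me3 in Olig2cKO tumours alone (middle) or H3K4me3 in control tumours alone (right), by the mean percentile rank of the pair, for pairs at least 25 points lower (blue), within 25 points (grey) or at least 25 points higher (red) in Olig2cKO tumours, with 95% binomial intervals. Between mean ranks of 20 and 80 Olig2 was most frequent in the blue pairs (40.2%, 56.8% and 71.0%) and least in the red ones (25.6%, 37.5% and 58.4%).

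Olig2 was more frequent at acetylation that ranked lower in Olig2cKO tumours than at acetylation that ranked higher. Over all pairs Olig2 lay on 52.7% (50.9 to 54.5) of those at least 25 points lower, 59.0% (58.5 to 59.6) of those between the lines and 37.9% (36.7 to 39.0) of those at least 25 points higher, with 55.0% over all. Seen the other way, 7.13% of pairs with Olig2 and 7.82% of pairs without it were at least 25 points lower, and 11.5% and 23.1% were at least 25 points higher. Pairs of very high or very low mean rank cannot differ by 25 points by construction, and strong peaks often carried Olig2. The shares were therefore also taken at like mean rank. At mean ranks of 40 to 60 they were 56.8% (53.9 to 59.6), 43.5% (42.3 to 44.8) and 37.5% (35.7 to 39.4). At mean ranks of 60 to 80 they were 71.0% (67.2 to 74.6), 63.2% (62.2 to 64.3) and 58.4% (55.9 to 61.0). The same order held in the other 3 classes of mean rank, although the lowest and the highest held only 116 and 28 of the lower pairs. At like mean rank the lower pairs by definition had higher control ranks than the higher pairs, so control rank was not matched. The median control rank was 72.0 for pairs with Olig2 and 39.9 for pairs without it. Pairs with Olig2 stood a median of 1.93 points higher in Olig2cKO tumours and pairs without it 8.43, or -0.85 and 1.90 with ranks among the pairs alone. Whether mapping Olig2 in control tumours favours sites that were stronger there was not tested. The panels of marks by rank difference show these shares.

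Acetylated regions lay closer together in the Olig2cKO list. The median gap between neighbouring peaks was 12911 bp in Olig2cKO and 15310 bp in control tumours, and 9.50% and 7.16% of gaps were under 1 kb. With the Olig2cKO list cut to the length of the control list the order turned, with a median of 16137 bp in Olig2cKO tumours. The closer spacing was thus not kept at equal list length.

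Few peaks without a partner lay farther than 100 kb from acetylation in the other genotype. Control-only peaks lay a median of 7324 bp from the nearest Olig2cKO peak, 38.1% (37.2 to 39.1) of them within 5 kb and 2.81% farther than 100 kb. Olig2cKO-only peaks lay a median of 10610 bp from the nearest control peak, 26.9% (26.3 to 27.5) of them within 5 kb and 5.93% farther than 100 kb. For scale, control-only and Olig2cKO-only peaks lay a median of 11118 and 12920 bp from the shared peaks of their own list. Control-only peaks were set against the longer list (67928 against 55323 peaks), and the part of list length in the difference was not tested. The closest genotype-only peaks were different in kind. Within 1 kb of the other list, 51.1% (48.4 to 53.8) of 1311 control-only peaks carried control H3K4me3 and 44.2% (41.5 to 47.0) Olig2, against 21.1% (19.5 to 22.7) and 23.0% (21.4 to 24.7) at 1 to 5 kb. For Olig2cKO-only peaks, 49.0% (46.6 to 51.4) of 1707 carried Olig2cKO H3K4me3 within 1 kb and 24.5% (23.2 to 25.9) at 1 to 5 kb. Beyond 1 kb the H3K4me3 shares stayed between 20.1% and 23.5% for control-only and between 21.6% and 27.5% for Olig2cKO-only peaks out to the largest distances.

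Genotype-only peaks far from the other list stood higher in their list than near ones. The median rank of control-only peaks was 18.7 within 1 kb and 27.3 beyond 100 kb, and that of Olig2cKO-only peaks was 19.5 and 28.8. The control-only peak farthest from any Olig2cKO peak, on chromosome 14 from 95201121 to 95203248, stood at rank 83.5 and 910 kb away, with Olig2 and without H3K4me3. The other 4 of the 5 farthest stood at ranks 14.6 to 27.5. The farthest Olig2cKO-only peak lay on chromosome 5 from 60059904 to 60060585, 1539 kb from a control peak and at rank 24.2. The 5 farthest Olig2cKO-only peaks carried neither H3K4me3 nor Olig2, and the strongest of them, on chromosome 1 from 143709425 to 143711094, stood at rank 58.9.

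**Figure D5:**
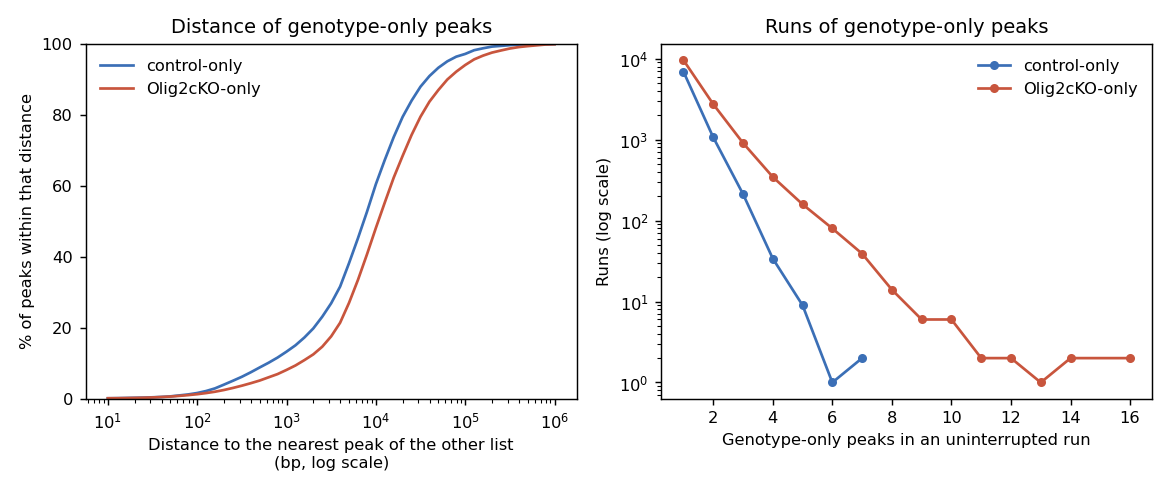
Left, percent of control-only (blue) and Olig2cKO-only (red) H3K27ac peaks within a given distance (bp, log scale) of the nearest peak of the other list, with medians of 7324 and 10610 bp. Right, number of uninterrupted runs (log scale) by the number of peaks in the run, which reached 7 for control-only and 16 for Olig2cKO-only peaks.

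Olig2cKO-only acetylation also came in longer stretches. When both lists were put in 1 order along the chromosomes, 69.9% of control-only peaks stood alone between peaks of another kind and 8.48% lay in runs of 3 or more. Of Olig2cKO-only peaks 45.5% stood alone and 28.5% lay in runs of 3 or more. Runs of 5 or more numbered 12 in control and 313 in Olig2cKO tumours. With lists of equal length the runs of 5 or more numbered 48 and 104. That cut removes the lowest-scoring Olig2cKO peaks, so control peaks matched by them alone become control-only by construction. The part of list length in the contrast was not tested. The cumulative curves and run lengths are drawn together in the plot of distances.

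The densest of the 5 longest Olig2cKO-only runs lay on chromosome 19 from 28526900 to 28819192, with 16 peaks over 292 kb, of which 9 carried H3K4me3 in Olig2cKO tumours and 3 Olig2. Another run of 16 on chromosome 1, from 142235613 to 144963716, was spread over 2728 kb with 4 peaks under H3K4me3 and 0 with Olig2. Runs of 14 lay on chromosome 17 from 3892140 to 4727109 and on chromosome 8 from 29409120 to 29982853, with no Olig2 peak in either, and the strongest peak of the latter stood at rank 96.0. A run of 13 on chromosome 4 from 28225362 to 30427806 held 3 peaks with Olig2. The longest control-only runs had 7 peaks, on chromosome 19 from 16872103 to 17059646 (188 kb) and on chromosome 4 from 125219210 to 125299039 (79.8 kb), each with 3 peaks under Olig2 and 1 under H3K4me3. A run of 6 on chromosome 5 from 148509394 to 148563833 carried H3K4me3 at 5 of its peaks.

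Rank differences showed little order along the chromosomes. Neighbouring pairs 5 to 12.5 kb apart had a Spearman correlation of 0.10 between their rank differences (9165 neighbours), and those more than 200 kb apart of 0.00 (1917 neighbours). Within 1 kb the correlation was -0.25 (2234 neighbours), so that where one pair of close neighbours ranked higher the other tended to rank lower. These are descriptions over sites that share their libraries. Per chromosome, the median rank difference ran from 2.75 points on chromosome 7 to 5.04 on chromosome 13, the number of Olig2cKO peaks per control peak from 1.19 on chromosome 11 to 1.27 on chromosome 10, and the Olig2cKO-only share from 27.9% to 33.0% on the same chromosomes. Whether depth plays a part in these differences was not tested.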

How the data were processed

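The deposited files are peak lists, 1 per library, with a position and a score per peak. The build mm9 and the tools CASAVA, Bowtie2 and MACS come from the labels, per the submitters' processing notes, and versions, settings and any input library are not given in the sources used here. The score in the deposited lists is the authors' own and is not scaled between libraries, so it was turned into a percentile rank within its list. Peaks on chromosomes 1 to 19 were paired by an overlap of 1 bp with numpy 2.4.6 and pandas 2.3.3 under Python 3.11.15, and the numbers of control peaks with 0, 1, 2 and 3 partners were the same in bedtools 2.31.1. Intervals came from scipy 1.17.1 and figures from matplotlib 3.10.9. The steps were tested on simulated lists. H3K4me3 or Olig2 counted as carried when a peak of that list overlapped the region, for pairs the span of both peaks. Regions were named by fixed rules: the 5 pairs strongest in both lists, the 10 largest rank differences and the 5 largest width differences in each direction, the 5 peaks with most pieces, the 5 longest runs and the 5 most isolated peaks of each genotype. Some are given as counts alone. The comparison, rules and alternatives were chosen with earlier results of these data known, and the description of inner gaps, short gaps and run lengths at equal list length was added after seeing the data. With 1 library per group no test was made. The full genotype shared by both groups is not reported here.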

Additional observations from a re-analysis of the deposited data

Results flagged for a closer look

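Chromosome Y was outside the comparison. The control library had 49 H3K27ac peaks there and the Olig2cKO library 48. They are given because they lie outside the lists compared, and these counts say nothing about the genotypes.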

How the results depend on the processing

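Of 140 values under alternatives, 62 stayed within the counting interval (counts within 1.5 times) and 78 moved. With lists of equal length the order of the genotypes turned for the median gap between peaks (control 15310 bp) and for pairs 25 points higher against lower, as given below. Depth is unknown and no replicate limits the values further. No paired analysis was possible because each group has 1 library. The alternatives for inner gaps and runs, and the upper 50% of the Olig2 list, were chosen after seeing the data.

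In what follows, pair shares are given for control and then Olig2cKO peaks, and shares 25 points higher and then lower. Olig2 in gaps here means any overlap of the gap with an Olig2 peak, not its middle base as above. By that measure the main values were 66.3% of gaps in splits and 16.3% in joins. With an overlap of 50% of the shorter peak, pairs held 76.7% and 62.5% of the lists, 39.6% of control-only and 28.2% of Olig2cKO-only peaks lay within 5 kb of the other list, and Olig2 lay in 71.1% of gaps in splits and 12.7% in joins.

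With peaks up to 1 kb apart counted as overlapping, these values were 64.6%, 52.6%, 28.7%, 20.5%, 62.5% and 59.0%, splits and joins numbered 7880 and 6164, 17.5% of pairs were 25 points higher, the width difference was 108 bp, Olig2 lay on 36.4% of higher and 49.2% of lower pairs, and 15.2% of higher pairs had H3K4me3 in Olig2cKO alone. This setting by construction counts all neighbours within 1 kb as pieces.

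With the upper 50% of each list, pairs held 78.8% and 64.2%, splits and joins numbered 481 and 19, the correlation was 0.65, 19.3% and 9.33% of pairs were 25 points higher and lower, the width difference was 8 bp, and median gaps were 31384 (control) and 26952 bp. Near peaks were 21.1% and 12.6%. Olig2 lay on 65.1% of higher and 74.0% of lower pairs, 12.8% of higher pairs had H3K4me3 in Olig2cKO alone, and 1.67% of higher and 10.8% of lower pairs had it in control alone. Olig2 lay in 86.3% and 52.6% of gaps, the latter of 19 gaps, and Olig2cKO-only runs of 5 or more numbered 167.

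With the Olig2cKO list cut to the control length, pairs held 70.7% of each list, the correlation was 0.70, 11.2% and 12.1% of pairs were 25 points higher and lower, the width difference was 91 bp, the Olig2cKO gap 16137 bp, and near peaks 32.7% and 25.0%. Olig2 lay on 40.4% of higher and 54.9% of lower pairs, H3K4me3 in Olig2cKO alone on 16.2% and 3.67%, Olig2 in 74.1% of gaps in splits, and runs numbered 48 and 104.

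With peaks within 1 kb merged, pairs held 81.6% and 68.1%, splits and joins numbered 223 and 201, since merging removes short gaps, 16.2% of pairs were 25 points higher, the width difference was 110 bp, median gaps were 17085 and 14942 bp, near peaks 32.5% and 22.6%, and Olig2 in gaps 51.8% and 10.9%.

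With ranks among pairs alone, 11.4% and 11.6% were 25 points higher and lower. With ranks within width classes these were 14.6% and 8.94%, and the correlation 0.71. Distances between centres gave 17164 and 14790 bp. Within 1 kb lay 13.2% of control-only and 8.09% of Olig2cKO-only peaks. With the upper 50% of the Olig2 list, Olig2 lay in 47.6% of gaps in splits and 11.6% in joins. Adding chromosome X moved no value. Causes of the other changes were not tested.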
